A study of Mus musculus with 6 samples.

Results

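Cma1, Ctsg and Kit were described in expanded mouse natural killer (NK) cells as 3 genes of the 518 endogenous and housekeeping genes on a NanoString panel, an assay that counts barcoded probes hybridised to RNA without amplification. They were selected by name with their values in all 6 libraries already known, so their levels and differences are given as a description with no test. All cells came from female C57BL/6 mice and were grown for 12 days in medium holding IL-15 joined to its alpha receptor at 10 ng/mL. In the anti-TIM-3 group (n = 2 libraries) the cells were expanded with AgN2a-4P feeder cells, irradiated at 100 Gy, and given anti-TIM-3 antibody for 4 h at the end. The untreated feeder group (n = 2) had the same expansion, and the IL-15 group (n = 2) had IL-15 without feeder cells. A second NK cell selection preceded RNA extraction. AgN2a-4P is a neuroblastoma line made to carry ligands that stimulate lymphocytes. The labels of both control groups give no treatment, whereas the protocol names an isotype antibody for 4 h, so "untreated" carries that reservation. Each library held 299485 to 441185 counts over the genes measured. The mouse or culture behind each library is not given, and p-values measure only the spread between these libraries, which may be technical.

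Cma1 and Kit are markers of mast cells, and Ctsg is better known from neutrophils. Cma1 encodes a chymase-family serine protease of mast cell granules, known in mice as a mast cell protease, and Ctsg encodes cathepsin G, a related serine protease stored in the granules of neutrophils, monocyte precursors and some mast cells. Kit encodes the receptor for stem cell factor, on which mast cells depend for survival, and is also carried by blood progenitors and by some innate lymphoid cells, immature NK cells among them. Cma1 and Ctsg lie in one cluster of granule protease genes on mouse chromosome 14, the chymase locus, which also holds the gene of granzyme B, a death-inducing protease of NK cells. In the RefSeq gene order of GRCm38.p6, 6 protein-coding genes stand between Cma1 and Ctsg, and a further 6 between Ctsg and Gzmb. Kit is on chromosome 5.

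The promoter windows of the 3 genes, and that of Gzmb as the neighbour with a different profile, are shown because Cma1 and Ctsg were low in the same libraries while Gzmb was not. Each runs from 250 bases before to 50 bases after the start site in RefSeq (GRCm38.p6), and for Kit the first of 2 listed windows was used. Capitals mark matches on either strand to any of 4 short motifs. The TATA box of many tissue-restricted promoters was searched as TATAAA. The site of GATA factors, which act in mast cells and in blood progenitors, was searched as AGATAA. The E-box of MITF, a transcription factor of mast cells, was searched in the form CACGTG and also in the alternative form CATGTG. The site of RUNX factors, which act throughout blood cell development, was searched as TGTGGT.
Cma1 promoter, chr14:55944626-55944925, minus strand: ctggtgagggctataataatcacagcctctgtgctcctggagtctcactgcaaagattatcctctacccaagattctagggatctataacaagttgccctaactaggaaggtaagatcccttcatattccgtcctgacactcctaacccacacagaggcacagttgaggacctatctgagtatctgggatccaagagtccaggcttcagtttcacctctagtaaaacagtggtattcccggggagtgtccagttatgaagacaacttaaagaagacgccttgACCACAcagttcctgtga
Ctsg promoter, chr14:56102525-56102824, minus strand: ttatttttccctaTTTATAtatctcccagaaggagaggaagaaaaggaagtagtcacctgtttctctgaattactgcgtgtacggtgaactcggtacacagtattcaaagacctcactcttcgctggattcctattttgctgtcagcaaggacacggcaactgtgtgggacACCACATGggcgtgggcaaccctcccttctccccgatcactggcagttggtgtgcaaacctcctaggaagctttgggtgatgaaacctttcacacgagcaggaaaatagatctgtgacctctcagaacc
Gzmb promoter, chr14:56262285-56262584, minus strand: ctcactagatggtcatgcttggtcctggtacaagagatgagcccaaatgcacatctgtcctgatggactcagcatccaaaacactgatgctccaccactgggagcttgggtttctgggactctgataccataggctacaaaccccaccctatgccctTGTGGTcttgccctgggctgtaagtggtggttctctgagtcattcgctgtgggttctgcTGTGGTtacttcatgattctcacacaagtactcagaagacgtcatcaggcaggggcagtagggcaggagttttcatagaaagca
Kit promoter, chr5:75574737-75575036, plus strand: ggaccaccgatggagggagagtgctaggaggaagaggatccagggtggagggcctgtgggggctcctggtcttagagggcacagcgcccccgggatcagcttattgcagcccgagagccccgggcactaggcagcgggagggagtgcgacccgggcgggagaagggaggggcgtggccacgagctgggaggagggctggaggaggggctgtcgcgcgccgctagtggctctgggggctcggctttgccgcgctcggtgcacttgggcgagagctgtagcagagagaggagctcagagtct

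The RUNX letters occurred once in the Cma1 window, once in the Ctsg window and at 2 places in the Gzmb window, and 16.9% of 27025 mouse promoter windows of this length hold them. In the Ctsg window the match overlapped one to an MITF E-box, letters held by 20.5% of windows, and a reverse-strand TATA box match (14.2% of windows) lay at its far end. None of these letters was in the Kit window, and the GATA letters (11.4% of windows) were in none of the 4. A match describes the sequence and does not show a binding site.

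Both proteases were near or at the level of the negative controls after anti-TIM-3 and well above it in all other libraries. Cma1 had a normalised count, on the authors' housekeeping scale, of 6.76 and 1.74 in anti-TIM-3 replicates 1 and 2, against 48.5 and 331 in untreated feeder replicates 2 and 3. In IL-15 replicates 1 and 3 it was 362 and 179. These values come from recovered counts of 6 and 1 with anti-TIM-3, 49 and 268 in untreated feeder cells, and 434 and 245 in IL-15 cells. The highest of the 8 negative control probes read 7 and 9 counts with anti-TIM-3, so Cma1 was not above background in either, and the exact Poisson 95% intervals of its counts there, 2.20 to 13.1 and 0.0253 to 5.57, cover counting error only. Its fitted log2 difference, anti-TIM-3 minus untreated feeder, was -5.21 ± 1.05 (standard error of the fit, n = 2 each). With anti-TIM-3 values held at the highest negative control, Cma1 was at least 11.4-fold lower than in untreated feeder cells and at least 23.0-fold lower than in IL-15 cells. These bounds take counts and group means as measured, leave out counting error, and rest on few libraries. The first was 4.37-fold without untreated feeder replicate 3 and 29.8-fold when replicate 2 of that group was dropped, and the bound against IL-15 ran between 16.1-fold and 32.6-fold with 1 library left out.

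Ctsg had a normalised count of 18.02 and 6.95 in anti-TIM-3 replicates 1 and 2, against 352 and 868 in untreated feeder replicates 2 and 3 and 744 and 222 in IL-15 replicates 1 and 3. Behind these values were 16 and 4 recovered counts with anti-TIM-3, 356 and 702 in untreated feeder cells, and 891 and 304 in IL-15 cells. Of the anti-TIM-3 libraries, replicate 1 exceeded its highest negative control and replicate 2 did not. The log2 difference was -5.63 ± 0.76 against untreated feeder, and with replicate 2 held at its highest negative control Ctsg was at least 33.0-fold lower. The bound against the IL-15 libraries was 24.2-fold, and both Ctsg bounds likewise leave out counting error. Without untreated feeder replicate 3 or 2 the first was 21.0-fold or 51.7-fold, and without IL-15 replicate 1 or 3 the second was 13.3-fold or 44.3-fold. For both genes the anti-TIM-3 libraries lay below every other library. Of 430 tested probes, 15.3% were likewise lower without overlap against untreated feeder, and 14.7% against IL-15. RNA was measured in bulk, so fewer cells of a type and less RNA per cell cannot be told apart.

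Kit went the other way. Its normalised count was 383 and 429 in anti-TIM-3 replicates 1 and 2, 176 and 129 in untreated feeder replicates 2 and 3, and 71.8 and 87.0 in IL-15 replicates 1 and 3. Its counts, 340 and 247 with anti-TIM-3, 178 and 104 in untreated feeder cells and 86 and 119 in IL-15 cells, were all above the highest negative control, which ranged from 6 to 12. The 3 groups did not overlap, with Kit highest under anti-TIM-3, intermediate in untreated feeder and lowest in IL-15. The log2 difference was 1.43 ± 0.25 against untreated feeder. On this scale the median of all tested probes was itself higher by 0.47, which leaves 0.96 for Kit relative to that median, and 60.2% of tested probes were higher without overlap. Against IL-15 the log2 difference was 2.36 ± 0.25, or 1.66 relative to the median of all probes, and 67.4% of probes were higher without overlap. On scales that put the median near 0 the Kit difference against untreated feeder was smaller, at 0.90 after TMM scaling (a trimmed mean of log ratios) and 0.95 with median of ratios.

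**Figure D1:**
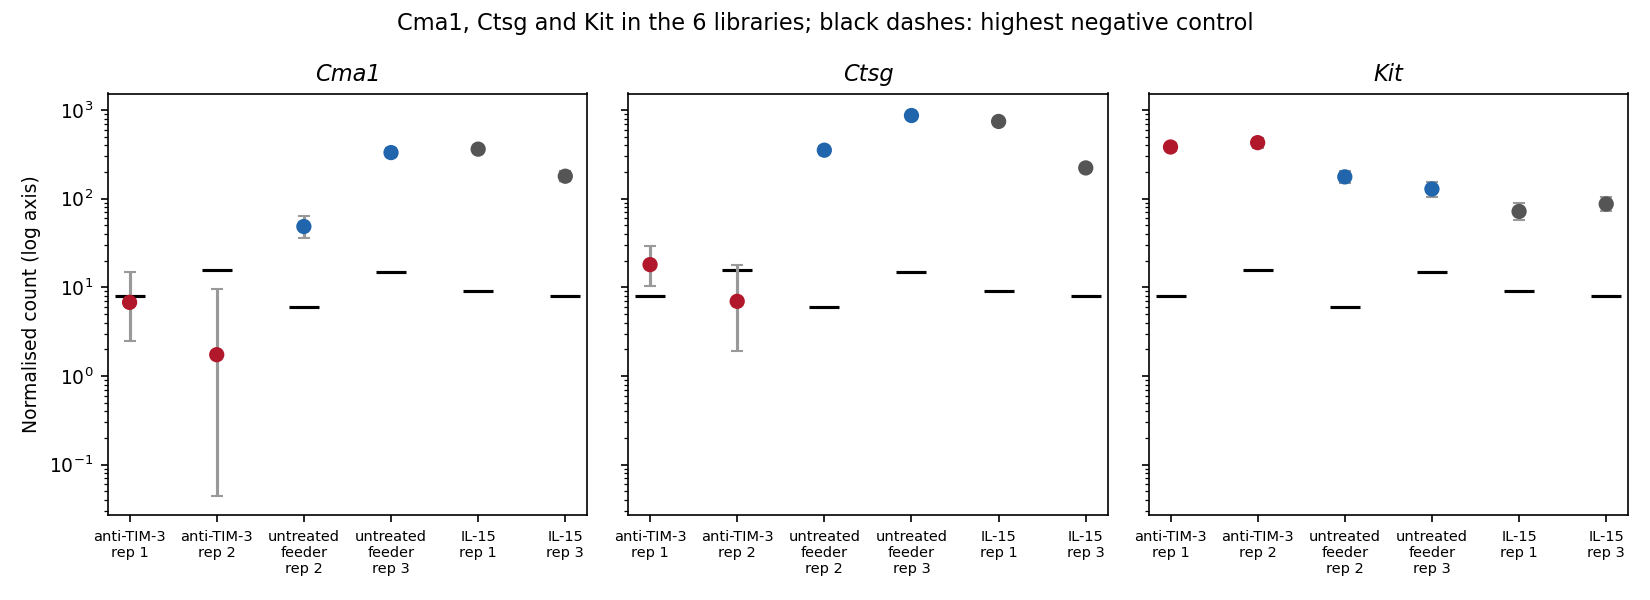
Normalised counts of Cma1, Ctsg and Kit in each library on a log axis (points, with exact Poisson 95% intervals of the counts), and the highest negative control of each library on the same scale (black dashes). Cma1 is at or below the dashes in both anti-TIM-3 libraries and Ctsg in 1 of them, while Kit is highest there, at 383 and 429.

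Feeder cells alone gave no shared pattern of the 3 genes. The log2 difference, untreated feeder minus IL-15, was -1.01 ± 1.05 for Cma1 and 0.44 ± 0.76 for Ctsg, both smaller than or close to their standard errors, and the groups overlapped for both. Without untreated feeder replicate 2 the Cma1 difference was 0.38, and without untreated feeder replicate 3 or IL-15 replicate 3 the Ctsg difference was -0.21 or -0.43, so neither direction held when 1 library was left out. Kit was higher in both untreated feeder libraries, by 0.93 ± 0.25, or 0.74 relative to the median of all probes, and 34.4% of probes were higher without overlap, against 5.81% that were lower. The comparisons share libraries, and the Kit differences are therefore not independent of each other.

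The proteases also differed between libraries of one group by more than most probes did. Cma1 differed 6.83-fold between the untreated feeder libraries, a log2 gap larger than that of 99.8% of tested probes, and its residual standard deviation (SD) within groups, 1.45 on the log2 scale, was above that of 99.3% of them, although that SD also includes the gap between the anti-TIM-3 libraries, whose 6 and 1 counts were not above the negative controls. For Ctsg, not above them in 1 of those libraries, the residual SD was 1.05, above that of 97.0% of probes. Where both were well above background, between the IL-15 libraries, the gap was larger than that of 86.5% of probes for Cma1 and 97.2% for Ctsg. Kit, with a residual SD of 0.23 against a median of 0.30 over all probes, was among the more even ones. The larger protease differences thus came with the larger replicate spread.

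**Figure D2:**
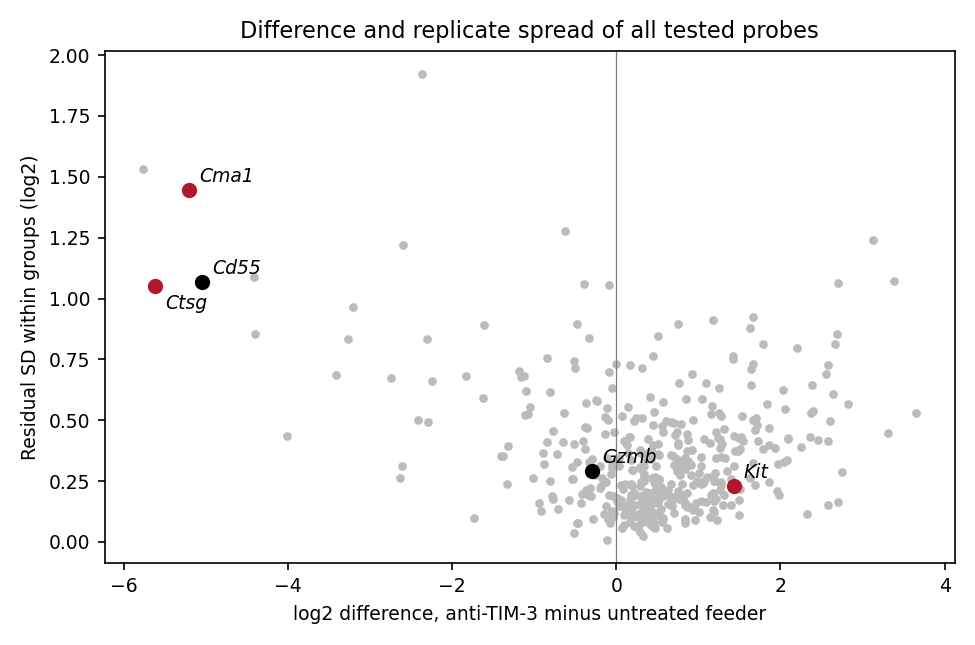
Each point is 1 of 430 tested probes, with its log2 difference, anti-TIM-3 minus untreated feeder, on the horizontal axis and its residual SD within groups (log2) on the vertical axis. Cma1 and Ctsg stand at the far left with SDs of 1.45 and 1.05, and Kit stands right of 0 with an SD of 0.23.

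Cma1 and Ctsg were low together with anti-TIM-3 but did not keep a fixed proportion elsewhere. With anti-TIM-3 Cma1 was not above the negative controls, so no proportion is given there. Of the summed counts of both probes in a library, Cma1 made up 12.1% (exact binomial 95% interval, 9.09 to 15.7) in untreated feeder replicate 2 and 27.6% (24.8 to 30.6) in untreated feeder replicate 3. In IL-15 replicates 1 and 3 it made up 32.8% (30.2 to 35.4) and 44.6% (40.4 to 48.9). The 4 shares without anti-TIM-3 differ by more than their counting intervals except those of untreated feeder replicate 3 and IL-15 replicate 1, whose intervals overlap. Ranked from high to low over the 6 libraries, IL-15 replicates 1 and 3 were 1 and 3 for Cma1 and 6 and 5 for Kit. Untreated feeder replicates 2 and 3 were 4 and 2 for Cma1 and 3 and 4 for Kit.

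Other mast cell markers were few and faint. Of 20 genes on a mast cell marker list, 7 were measured, and besides Cma1 and Kit these were Fcer1a, Ms4a2, Fcer1g, Tpsab1 and Il1rl1. Fcer1a and Ms4a2 encode the alpha and beta chains of the high-affinity IgE receptor, Tpsab1 a tryptase of mast cell granules, and Il1rl1 the receptor for IL-33. Fcer1a read 15 and 11 counts with anti-TIM-3, 15 and 6 in untreated feeder cells, and 18 and 12 in IL-15 cells. It was above the highest negative control in 5 of 6 libraries, from 12 against 11 in IL-15 replicate 3 to 15 against 6 in untreated feeder replicate 2. Ms4a2 ranged from 5 to 10 counts and exceeded it in 1 library, Tpsab1 from 5 to 13 and in 3, and Il1rl1 from 2 to 15 and in 4. Summed over these 4 genes the counts were 45 and 30 with anti-TIM-3, 48 and 23 in untreated feeder cells, and 51 and 43 in IL-15 cells, where 4 probes at the mean of the negative controls would sum to between 17 and 24.5. None of the 4 reached the minimum for testing. Their summed normalised count was 50.7 and 52.1 with anti-TIM-3 against 47.5 and 28.4 in untreated feeder. Normalisation scales background too: 1 count became 1.74 in anti-TIM-3 replicate 2, but 0.990 and 1.24 in untreated feeder replicates 2 and 3. At counts this near the negative controls, these sums therefore do not compare mast cell content between groups.

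Fcer1g, the signalling chain that the IgE receptor shares with activating receptors of NK cells, was the abundant exception. It had a normalised count of 2521 and 3125 with anti-TIM-3, 2207 and 3426 in untreated feeder cells, and 2075 and 1509 in IL-15 cells. Its log2 difference, anti-TIM-3 minus untreated feeder, was 0.03 ± 0.29 (limma adjusted p = 0.933). Mpo, the myeloperoxidase gene that neutrophil precursors express with Ctsg, read between 6 and 11 counts and was above the highest negative control in 1 library, and Csf1r, the macrophage growth factor receptor gene, was above it in none. Both were chosen after their values were seen. Summed over the 4 neutrophil and monocyte markers measured besides Ctsg, the normalised count was 139 to 168 with anti-TIM-3, 60.4 to 141 in untreated feeder and 51.2 to 56.7 in IL-15. Most of the anti-TIM-3 sum was the integrin gene Itgam, at 112 and 125 against 23.8 and 58.1 in untreated feeder. Cd14 lay the other way, at 14.6 and 19.1 against 23.8 and 55.6, so the sum does not describe the markers as a set. All 12 NK cell markers measured were above the negative controls in every library, and against untreated feeder 6 rose and 2 fell, beside 31.4% and 7.21% of all tested probes. With TMM 3 rose and 2 fell, beside 53 and 50 of the 430 probes. No call held without untreated feeder replicate 3, for these or any other tested probe. Of 2 tested T cell markers 1 fell, Cd3d, by 1.83 ± 0.54 on the log2 scale (limma adjusted p = 0.0396), a call that held in 9 of 16 alternatives. Its normalised count was 67.6 and 41.7 with anti-TIM-3, 190 and 188 in untreated feeder, and 22.5 and 64.4 in IL-15. Against IL-15 the Cd3d difference with anti-TIM-3 was 0.48 ± 0.54 and did not pass (limma adjusted p = 0.479). The 1 tested feeder cell ligand gene, Icam1, rose by 2.37 ± 0.41 (limma adjusted p = 0.0104). It was not confined to cultures with feeder cells, with a normalised count of 85.1 and 129 in IL-15 replicates 1 and 3. The other of the 2 ligand genes measured, Cd86, did not reach the minimum for testing. The 2 tested neutrophil and monocyte genes, the 1 basophil and eosinophil gene and the 1 B cell gene did not pass against untreated feeder. Against IL-15, Itgam was higher with anti-TIM-3 by 2.82 ± 0.59 (limma adjusted p = 0.0114), and the others of these genes did not pass. The part of other cell types in the protease values was not tested beyond these measurements.

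**Figure D3:**
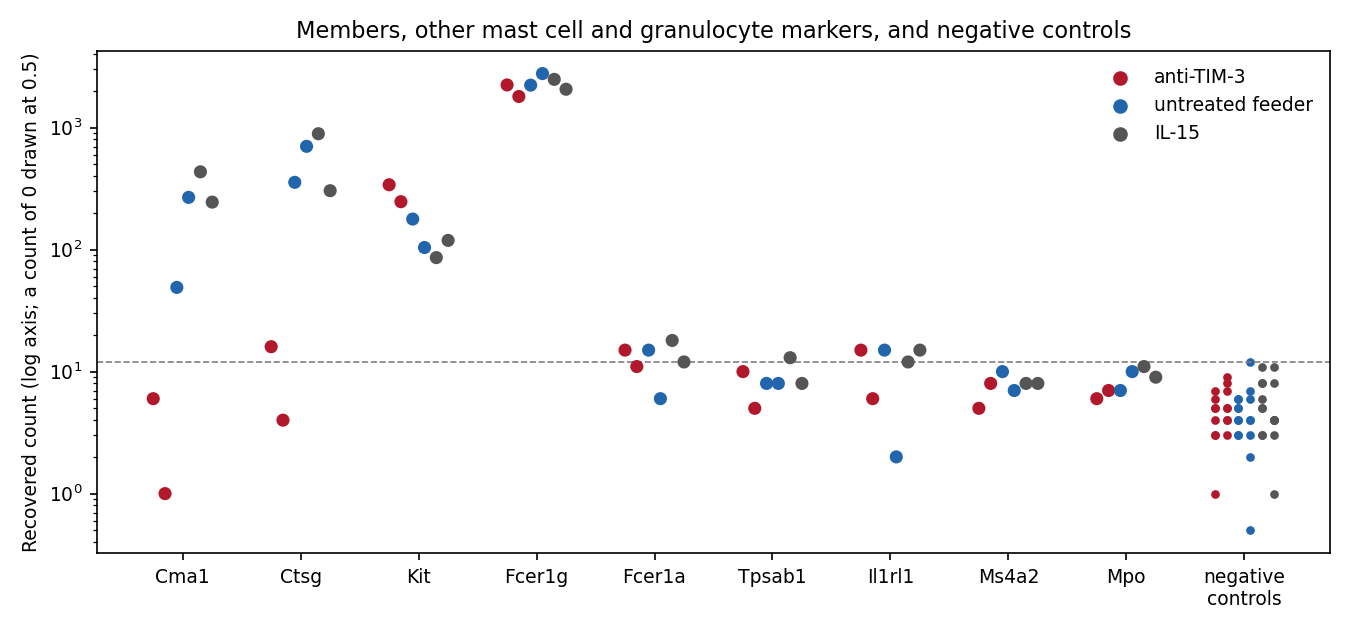
Recovered counts of the 3 genes, of Fcer1g, of 4 further mast cell markers and of Mpo in each library, beside the 8 negative controls, on a log axis with the dashed line at the highest negative control of any library, 12 counts, and a count of 0 drawn at 0.5. Cma1 and Ctsg reach the negative controls only with anti-TIM-3, while Fcer1a, Tpsab1, Il1rl1, Ms4a2 and Mpo stay at 2 to 18 counts in all groups.

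Of the granule proteases of NK cells, Gzmb did not share the profile of Cma1 and Ctsg. Gzmb, the only other gene of the chymase locus measured of 15 listed, had a normalised count of 14702 and 14648 with anti-TIM-3, 15027 and 21658 in untreated feeder cells, and 16804 and 12095 in IL-15 cells. Its log2 difference, anti-TIM-3 minus untreated feeder, was -0.30 ± 0.28 and did not pass (limma adjusted p = 0.435, and no pass in any of 16 alternatives). Over the list of granule proteases and granule machinery, 9 genes were tested, of which 4 rose and 1 fell, beside 31.4% of all tested probes that rose and 7.21% that fell (38.6% in either direction). Against IL-15, 5 of the 9 rose and 1 fell, beside 44% and 6.98% of all tested probes. Between untreated feeder and IL-15 no gene of any list passed, and neither did any other tested probe. Prf1, which encodes perforin, the protein that opens pores in target cells, was the one that fell against untreated feeder, by 2.41 ± 0.39 on the log2 scale (limma adjusted p = 0.0104). Its normalised count was 1889 and 2205 with anti-TIM-3, 7595 and 15542 in untreated feeder replicates 2 and 3, and 12804 and 8286 in IL-15 replicates 1 and 3. Like both proteases, Prf1 was therefore lower in the anti-TIM-3 libraries than in every other library. Ctss, a cathepsin of antigen processing, rose by 2.09 ± 0.35 (limma adjusted p = 0.0104), Ctsw, a cathepsin of cytotoxic lymphocytes, by 1.5 ± 0.31 (limma adjusted p = 0.0153), and Cd63, a granule membrane gene, by 1.29 ± 0.33 (limma adjusted p = 0.0269). The median log2 difference of the list was 0.37, against 0.47 over all tested probes. With TMM 1 gene of the list rose and 1 fell, beside 53 and 50 of the 430 tested probes. The calls of the list, like those of all other tested probes, did not hold without untreated feeder replicate 3.

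Among genes that act with KIT, 10 of 22 listed were measured, and the ligand gene was not analysed here. Of the 9 besides Kit, 4 rose against untreated feeder and none fell, beside 31.4% and 7.21% of all tested probes: Jak2, a cytokine receptor kinase, by 1.21 ± 0.35 on the log2 scale (limma adjusted p = 0.0386), and the Src-family kinase genes Fyn by 1.01 ± 0.18 (limma adjusted p = 0.0104), Lck by 0.80 ± 0.23 (limma adjusted p = 0.0353) and Lyn by 0.79 ± 0.25 (limma adjusted p = 0.0464). The transducers Inpp5d, Stat5b, Mapk3 and Pik3cd lay between 0.26 and 0.63 and did not pass. The median of the list, 0.63, stood beside 0.47 over all tested probes. The 4 rises depended on the scale: with TMM, positive controls or median of ratios none of the 9 passed. On those scales 53, 32 and 52 of the 430 tested probes rose. Nor did the rises hold without either untreated feeder library or without anti-TIM-3 replicate 2, where fewer of all tested probes passed.

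Of 6 IgE receptor signalling genes measured, 3 were tested and 2 rose, beside 31.4% of all tested probes: Syk, a kinase that binds the receptor, by 1.14 ± 0.34 on the log2 scale (limma adjusted p = 0.0410) and Lyn. Neither passed with TMM, where 53 of the 430 probes rose, nor did the rises hold without either untreated feeder library. The list of type 2 and mast cell cytokines and chemokines, many of which NK cells make too, had 6 tested genes, of which 5 rose, beside the same 31.4%. Ccl1, a chemokine of mast and T cells, rose by 3.38 ± 0.77 (limma adjusted p = 0.0192), and Ccl3, a leukocyte chemoattractant, by 3.31 ± 0.36 (limma adjusted p = 0.00441). Csf2, encoding GM-CSF, rose by 2.82 ± 0.48 (limma adjusted p = 0.0104) and Tnf by 2.75 ± 0.31 (limma adjusted p = 0.00441). With TMM 5 again rose, beside 53 of the 430 probes. Without untreated feeder replicate 3 the rises did not hold, as for all tested probes. Il5, Il9 and Il13, the type 2 cytokines proper, did not reach the minimum for testing. Neither of the 2 tested receptor and substrate genes of these proteases, Cxcl5 and Tgfb1, passed, at log2 differences of 0.20 ± 0.36 and -0.05 ± 0.18.

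Kit was also on the list of markers of other innate lymphoid cells and progenitors, of which 5 other genes were tested, 3 rising and 1 falling, beside 31.4% and 7.21% of all tested probes. Cxcr6, a chemokine receptor of tissue lymphocytes, rose by 2.26 ± 0.32 on the log2 scale (limma adjusted p = 0.00884), and Tcf7, encoding the transcription factor TCF-1, by 2.20 ± 0.58 (limma adjusted p = 0.0286). Icos, a co-stimulatory receptor gene, fell by 1.38 ± 0.30 (limma adjusted p = 0.0172). With TMM 1 rose and 2 fell, beside 53 and 50 of the 430 tested probes. Without untreated feeder replicate 3 these calls did not hold, as for all tested probes. Summed over the 8 markers measured besides Kit, the normalised count was 4987 to 7048 with anti-TIM-3, 6542 to 7805 in untreated feeder and 6575 to 7498 in IL-15. That sum mixes rising and falling members and weights the abundant ones, so it does not describe the list as a set.

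Likeness of profile was measured as the root mean square difference between log2 values, each gene centred on its own mean over the 6 libraries, against the 409 other tested endogenous genes, with values at or below the negative controls entered as measured. For Ctsg the nearest was Cd55, the gene of a complement regulator, at 0.30 against a root mean square of 2.66 for Ctsg itself. Cd55 had a normalised count of 131 and 60.8 with anti-TIM-3, 1974 and 4391 in untreated feeder cells, and 4520 and 1079 in IL-15 cells, high and low in the same libraries as Ctsg. Next came Havcr2, the gene of TIM-3 (0.78), the interferon-induced Ifitm1 (0.78), Cma1 (0.79) and Ifitm2 (0.84). For Cma1 the nearest was Ctsg (0.79), then Cd55 (0.94), Ifitm1 (1.10), Ifitm2 (1.16) and Havcr2 (1.19). Havcr2 had 87.9 and 24.3 with anti-TIM-3, 717 and 1343 in untreated feeder cells, and 682 and 538 in IL-15 cells. Unlike the proteases, Cd55 kept at least 35 counts in every library.

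Kit ranked 370 among the 409 genes by likeness to Cma1 and 361 by likeness to Ctsg. Its own nearest genes were Tnfrsf1a, a TNF receptor gene (0.17 against 0.98 for Kit itself), Egr3, an early-response transcription factor gene (0.19), Ctsw (0.20), Tnfsf12, encoding the cytokine TWEAK (0.21), and Ccl9, a chemokine gene (0.21). Tnfrsf1a had a normalised count of 399 and 417 with anti-TIM-3, 147 and 142 in untreated feeder cells, and 84.3 and 101 in IL-15 cells. These ranks describe 6 libraries that share a scale in which most probes are higher with anti-TIM-3.

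**Figure D4:**
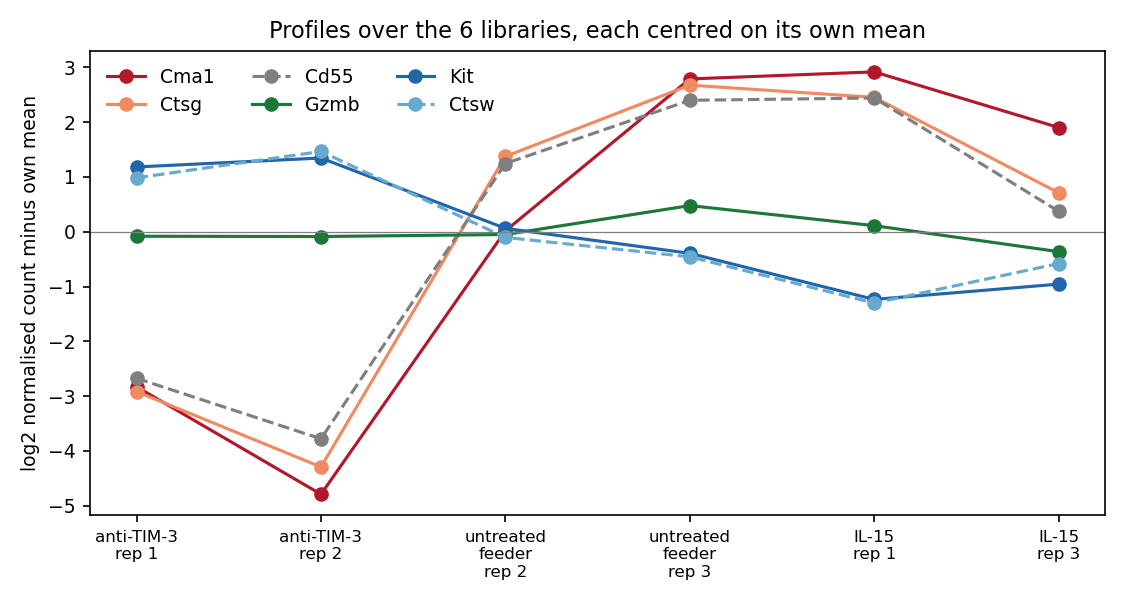
Log2 normalised counts of Cma1, Ctsg, Cd55, Gzmb, Kit and Ctsw over the 6 libraries, each centred on its own mean. Ctsg and Cd55 run together through all 6 libraries, Cma1 departs from them most in untreated feeder replicate 2 and IL-15 replicate 3, Gzmb is nearly flat, and Kit and Ctsw are highest where the proteases are lowest.

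The authors' deposited table, which covers 498 genes and names its groups only by number, gave log2 fold changes of -5 for Cma1, -5.6 for Ctsg and 1.4 for Kit. Across 16 alternatives Cma1 ranged from -6.60 to -3.51, Ctsg from -6.83 to -4.94 and Kit from 0.90 to 1.66 in the anti-TIM-3 comparison with untreated feeder, and none of these changed direction.

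**Figure D5:**
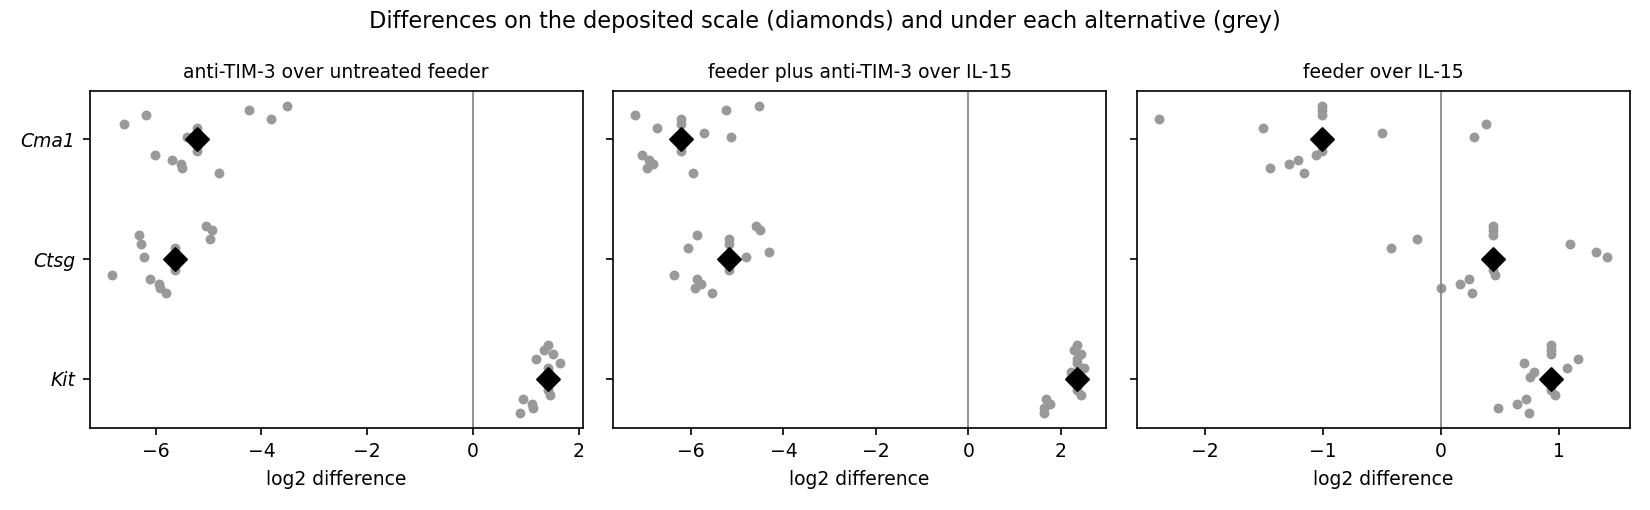
Log2 differences of Cma1, Ctsg and Kit in the 3 comparisons on the deposited scale (diamonds) and under each of 16 alternatives (grey points). In both comparisons with anti-TIM-3 the proteases stay below 0 and Kit above it, while in the comparison of untreated feeder with IL-15 the points of Cma1 and Ctsg cross 0.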

How the data were processed

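The data were NanoString counts of 3 groups of 2 libraries. The authors deposited log2 values of 518 genes and 14 spike-in controls, scaled so that the housekeeping mean is equal in all libraries, as the values show, and the submitters' processing notes name limma alone. The protocol labels mention quantitative PCR, but the probes are those of a NanoString panel. The values of each library were whole multiples of 1 step for genes and another for spike-ins (100% within 0.01 of a whole number), which gave back counts totalling 299485 to 441185 per library. A further 18 columns of values and 12 rows of quality values, named by instrument lane, were not used.

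The authors' log2 values entered 1 model of the 6 libraries without a pseudocount, fitted by limma 3.58.1 (R 4.3.3) with a variance trend, robust moderation and Benjamini-Hochberg adjustment at 0.05. The 430 probes with at least 20 counts in at least 2 libraries were tested, all 3 genes among them, and 88 were left out. The members passed that minimum through the libraries in which they were high. Fits were tested on simulated data whose spread within groups was capped below that of Cma1 and Ctsg, so the simulation does not cover these 2 genes. The members and lists were chosen with earlier results of these data known. Genes named were the 3, the measured members of the mast cell, chymase locus and KIT lists, at most 4 members of each other list by absolute difference, and the 5 nearest profiles. The values of 1 gene of the KIT list are not reported here. Alternatives were 4 scalings, background subtraction, 2 count filters, plain moderation, the replicate number as a block, each library left out, and, added after seeing the data, a floor at the negative controls and fold bounds without each library.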

Additional observations from a re-analysis of the deposited data

How the results depend on the processing

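In both comparisons with anti-TIM-3, the directions of Cma1, Ctsg and Kit held under all 16 alternatives. The size of the Kit difference depended on the scale. Against untreated feeder it was 0.90 by TMM, 1.14 by positive controls, 1.12 by total count and 0.95 by median of ratios, and against IL-15 it was 1.64, 1.63, 1.77 and 1.68. Between untreated feeder and IL-15 it was 0.48 by positive controls and 0.64 by total count. With negative controls subtracted, Ctsg was at -6.83 against untreated feeder and -6.37 against IL-15. With values held at the negative controls Cma1 was at -3.51 and -4.52. Between untreated feeder and IL-15, Cma1 turned to 0.28 with the replicate block, and Ctsg to -0.0039 with positive controls. Leaving out each library in turn gave -2.39 to 0.38 for Cma1 and -0.43 to 1.31 for Ctsg there.

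Counts of probes past the limma threshold moved more. The 166 against untreated feeder (135 higher, 31 lower) became 103 by TMM (53 and 50), 56 by positive controls (32 and 24), 95 by total count (56 and 39), 95 with median of ratios (52 and 43) and 61 with the replicate block, and 0 to 171 when 1 library was left out, the 0 without untreated feeder replicate 3. The count was 43 without anti-TIM-3 replicate 2, and 63 when untreated feeder replicate 2 was dropped. The 219 against IL-15 (189 and 30) became 75 by positive controls (32 and 43), 134 by total count (70 and 64) and 76 with the replicate block, and 113 to 199 with 1 library left out, the 113 without anti-TIM-3 replicate 2. TMM and median of ratios gave 154 (78 and 76) and 152 (75 and 77). Between untreated feeder and IL-15 limma called 0 probes, with 39 at an unadjusted p under 0.05, and 0 to 7 with 1 library left out, the 7 without IL-15 replicate 3. Of the list counts under alternatives, 347 stayed within 1.5 times and 85 did not. A count of 0 that remained 0 was taken as staying, which covers most counts between untreated feeder and IL-15. The cause of these changes was not tested. Groups of 2 and counts at the negative controls limit the precision of both proteases with anti-TIM-3. The titles share replicate numbers across groups. Correlations over probes between the deviations of same-numbered libraries were 0.0801, -0.415 and 0.0376. With 2 libraries per group the deviations in a group are mirror images of each other. These correlations therefore cannot decide whether same-numbered libraries share a mouse or culture. Neither is given for any library, so the block describes a shared number only.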
